A study of Mus musculus with 3 samples.

Results

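The Ifitm family is described here through its 3 members Ifitm1, Ifitm2 and Ifitm3, out of 23283 genes or groups of genes listed in the deposited tables. The members were taken by their symbols, each of which stands in 1 row of each table. They were picked because earlier results of these data were known, so their values are a description and carry no test. The sequenced RNA came from CD4+ T cells binding 2W:I-A(b), the 2W1S peptide held by a mouse MHC class II molecule, sorted by flow cytometry from inguinal and popliteal lymph nodes. C57BL/6 mice had been immunized in the footpad with an IFA emulsion of LPS and 2W1S peptide, and cells were taken on day 7. The groups were IL6ra T-KO (genotype Il-6 receptor a chain -/-), MyD88 T-KO (genotype Myd88 -/-) and WT. The title of the series calls both deletions T cell-specific, the genotype labels do not, and the Cre driver is not given in the sources used here. Each group was 1 library, pooled from 4 experiments and 15 to 30 mice per genotype, so no spread between mice can be measured.

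IFITM proteins are small membrane proteins of the CD225 family that are induced by type I and type II interferons. They sit in the plasma membrane and in endosomes and hinder the fusion of enveloped viruses with the cell. IFITM3 acts mainly in late endosomes and lysosomes, and IFITM1 lies more at the cell surface, as known from human cells. Interferon receptors signal through JAK kinases, and many of the genes they induce carry an interferon-stimulated response element near their start. IL-6 signals mainly through STAT3, and MyD88 is the adaptor of the interleukin-1 receptor family and most Toll-like receptors.

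The members lie within 55.9 kb of chromosome 7 (build mm10), each in 2 exons. Ifitm2 (chr7:140954839-140955961, minus strand) comes first, Ifitm1 (chr7:140967429-140969827, plus strand) 11.5 kb on, and Ifitm3 (chr7:141009590-141010744, minus strand) 39.8 kb further. Their coding sequences are 432, 318 and 411 nt long in that order. Over positions aligned without gaps, the coding sequences of Ifitm1 and Ifitm2 are 82.1% identical, as are those of Ifitm1 and Ifitm3, and those of Ifitm2 and Ifitm3 are 80.9% identical. With gap positions counted as differences, these shares are 60.4% for Ifitm1 and Ifitm2, 63.5% for Ifitm1 and Ifitm3, and 75.9% for Ifitm2 and Ifitm3. Of the 30-nt stretches of their transcripts, 6.36% of Ifitm1, 8.79% of Ifitm2 and 10.2% of Ifitm3 also occur in another Ifitm transcript, and none of the 75-nt stretches do. How the authors' counting treated such reads is not given, so the split between members is uncertain to that degree.

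The 200 bases around each start are shown because interferon-induced genes commonly carry their response element close to the start. They run from 170 bases before the RefSeq start to 30 after it, 5′ to 3′ on the strand of the gene (RefSeq, GRCm38.p6), at chr7:140967906-140968105 for Ifitm1, chr7:140955932-140956131 for Ifitm2 and chr7:141010715-141010914 for Ifitm3. Capitals mark matches on either strand to 3 motifs. The core of the interferon-stimulated response element is GAAA and GAAA with any 2 bases between them. The palindrome that STAT dimers bind is TTC and GAA with any 3 bases between them. A form of the NF-kB site is GGGA and TCC with any 3 bases between them.
Ifitm1: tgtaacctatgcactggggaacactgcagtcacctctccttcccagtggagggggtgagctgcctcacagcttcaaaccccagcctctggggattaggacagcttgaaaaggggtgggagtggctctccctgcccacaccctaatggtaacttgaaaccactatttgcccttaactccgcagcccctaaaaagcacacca
Ifitm2: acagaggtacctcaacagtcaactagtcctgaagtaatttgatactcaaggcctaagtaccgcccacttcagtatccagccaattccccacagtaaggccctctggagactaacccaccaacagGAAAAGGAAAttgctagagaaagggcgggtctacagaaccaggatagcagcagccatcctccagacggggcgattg
Ifitm3: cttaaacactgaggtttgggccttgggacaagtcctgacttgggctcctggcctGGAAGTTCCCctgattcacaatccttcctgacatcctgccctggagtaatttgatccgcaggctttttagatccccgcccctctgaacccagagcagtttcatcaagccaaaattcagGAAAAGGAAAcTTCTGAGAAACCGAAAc
The search covered 250 bases before to 50 after each start, where position 1 is the first transcribed base. Ifitm2 held 1 response element match, GAAAAGGAAA at positions -46 to -37. Ifitm3 held the same 10 letters at positions 3 to 12 and a second match, GAAACCGAAA, at 20 to 29. In Ifitm3, TTCTGAGAA at 14 to 22 overlaps that second match, and GGAAGTTCCC at -116 to -107 is the NF-kB type match, read on the opposite strand. Ifitm1 held none of the 3 motifs in this window, and its RefSeq start lies 647 bases inside the span given in the tables, so an upstream start falls outside it. Of 32851 RefSeq promoters of this length, 3.44% held the response element core, 8.30% the STAT palindrome and 4.59% the NF-kB type. Counted per gene, over 27025 genes, the shares were 3.99%, 9.55% and 5.21% in the same motif order. The response element core was found in 26 of 55 genes (47.3%) of the interferon-induced lists described further on that had a promoter sequence.

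The targeted genes were read first. Myd88 stood at 19.5 FPKM in MyD88 T-KO cells, against 49.8 FPKM in WT cells, where FPKM counts fragments per kilobase of transcript, scaled for the number mapped. Il6ra stood at 65.1 FPKM in the IL6ra T-KO library, against 57.1 FPKM in WT. The transcript level did not mark that deletion, so the library is named by its label throughout. The tables do not resolve exons, and a shortened transcript cannot be seen in a gene-level value. Socs3, the feedback inhibitor induced by STAT3, was at 37.9 FPKM in the IL6ra T-KO-labelled library and 169 FPKM in WT, a gene named after its values were seen. All 15 T cell marker genes were measured in all libraries. In the IL6ra T-KO-labelled library 12 of them stood below their WT level, as did 5978 of all 10502 genes with at least 1 FPKM. The markers summed to 4453 FPKM against 5206 FPKM in WT, and all genes to 326130 FPKM against 346394 FPKM. In MyD88 T-KO cells 10 of the markers stood above their WT level, as did 5602 of all 10345 genes with at least 1 FPKM. There the markers summed to 5206 FPKM against 5082 FPKM in WT of that table, and all genes to 343369 FPKM against 338128 FPKM. Low values step in multiples of 1 fragment, and 1 FPKM over 1 kb of transcript was worth 19.7 to 21.2 fragments in these libraries. WT values in the IL6ra T-KO table are 1.02 times those in the MyD88 T-KO table, so each knockout is set against WT of its own table, and both comparisons share the WT library.

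All members were higher in the IL6ra T-KO-labelled library, by 2.83-fold to 6.25-fold, and close to the WT level in MyD88 T-KO cells. Ifitm1 stood at 25.6 FPKM (95% counting interval 23.1 to 28.2) in the IL6ra T-KO-labelled library, against 4.09 FPKM (3.12 to 5.26) in WT. Ifitm2 stood at 28.5 FPKM (25.8 to 31.5) in the IL6ra T-KO-labelled library, against 6.68 FPKM (5.34 to 8.22) in WT. Ifitm3, the member most studied for restriction of influenza virus, stood at 24.0 FPKM (21.5 to 26.7) in the IL6ra T-KO-labelled library, against 8.46 FPKM (6.96 to 10.1) in WT. In each member the IL6ra T-KO-labelled library held the high value and WT the low one. The values rest on about 399, 396 and 345 fragments of Ifitm1, Ifitm2 and Ifitm3 in the IL6ra T-KO-labelled library and 60, 87 and 114 in WT. These intervals cover counting error only, since reads without molecular identifiers are not independent molecules. In these sorted pools, more cells of a type and more RNA per cell cannot be told apart, nor can fewer cells and less RNA.

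**Figure D1:**
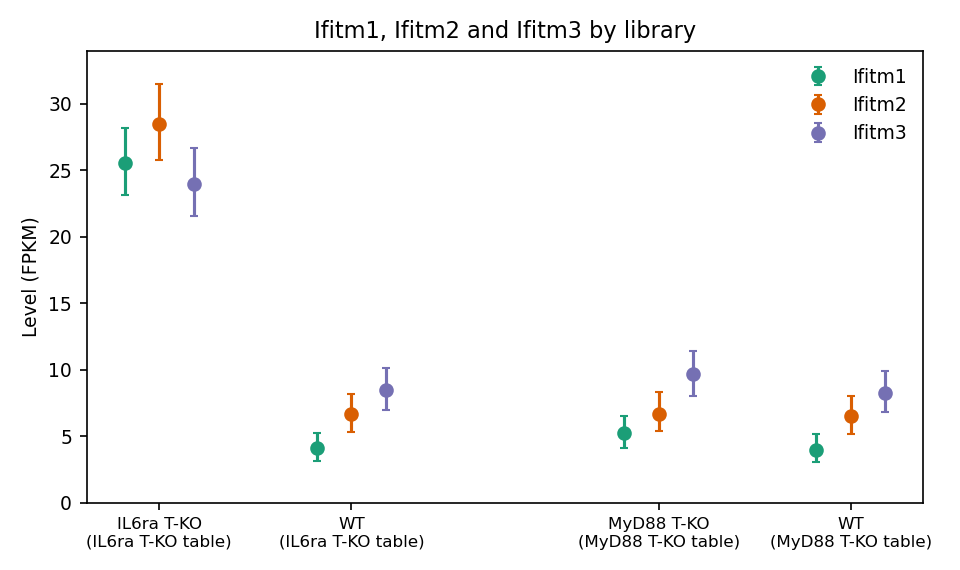
Level of Ifitm1, Ifitm2 and Ifitm3 in FPKM (vertical axis) in each library of each table (horizontal axis), with bars for the 95% counting interval; the WT library is drawn for each table. The library labelled IL6ra T-KO lies between 24.0 and 28.5 FPKM, above MyD88 T-KO (5.22 to 9.66 FPKM) and both sets of WT values (3.99 to 8.46 FPKM).

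As ratios of the deposited FPKM, Ifitm1 was 6.25-fold higher (counting interval 4.76 to 8.35), Ifitm2 4.27-fold (3.39 to 5.46) and Ifitm3 2.83-fold (2.30 to 3.55) in the IL6ra T-KO-labelled library than in WT. The authors' deposited table marks Ifitm1 (q = 0.0121) and Ifitm2 (q = 0.0138) as significant, and not Ifitm3 (q = 0.187). That table marks 0.502% of its 11356 tested genes as significant and higher in this library and 0.467% as lower, and its q-values compare 1 library with 1 library. The standard errors that the deposited statistics imply of these ratios on the log2 scale were 0.66 for Ifitm1, 0.53 for Ifitm2 and 0.51 for Ifitm3. The call that separates Ifitm3 from the others is the authors', and the difference between members was not tested. All further ratios are log2((knockout FPKM + 1)/(WT FPKM + 1)), and this scale shrinks differences at low levels; a gene counts as higher or lower at 1 or more in size. On that scale the members stood at 2.38 (Ifitm1), 1.94 (Ifitm2) and 1.40 (Ifitm3), and 0.951% of 8100 genes with at least 5 FPKM in either library were higher and 0.741% lower by this rule. Since the members were picked on this contrast, nothing is read from their count against that share. Ifitm1 entered the 8100 through the IL6ra T-KO-labelled library alone, as its WT level was below 5 FPKM.

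Ifitm1 stood at 5.22 FPKM (4.12 to 6.55) in MyD88 T-KO cells, against 3.99 FPKM (3.05 to 5.14) in WT. Ifitm2 stood at 6.69 FPKM (5.39 to 8.30) in MyD88 T-KO cells, against 6.52 FPKM (5.21 to 8.02) in WT. Ifitm3 stood at 9.66 FPKM (8.04 to 11.4) in MyD88 T-KO cells, against 8.26 FPKM (6.79 to 9.89) in WT. The intervals of MyD88 T-KO and WT overlapped in every member. The folds were 1.31 (0.922 to 1.87) for Ifitm1, 1.03 (0.760 to 1.41) for Ifitm2 and 1.17 (0.903 to 1.52) for Ifitm3, and each interval includes 1. No member was past the threshold, as against 0.189% of 7933 genes that were higher and 0.24% that were lower. None was marked in the authors' deposited table, which marks 0.394% of 11164 genes as higher and 0.484% as lower.

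The order of the members differed between libraries. In the IL6ra T-KO-labelled library the order was Ifitm2, Ifitm1, Ifitm3, and the counting intervals of neighbours overlapped. The order in MyD88 T-KO cells was Ifitm3, Ifitm2, Ifitm1, again with overlapping neighbours, while the intervals of Ifitm3 and Ifitm1 did not overlap. WT cells had that same order, and there the intervals of Ifitm2 and Ifitm3 overlapped. Those of Ifitm1 and Ifitm2 only just missed each other, at 5.14 and 5.21 FPKM in WT of the MyD88 T-KO table. As these intervals cover counting error only, the 2 genes are not shown to differ in WT. Ifitm1 made up 32.7% of the summed FPKM of the family in the IL6ra T-KO-labelled library, 24.2% in MyD88 T-KO cells and 21.2% in WT. Ifitm3 made up 30.7% in the IL6ra T-KO-labelled library, 44.8% in MyD88 T-KO cells and 44.0% in WT. The highest member was thus 1.19 times the lowest in the IL6ra T-KO-labelled library, 1.85 times in MyD88 T-KO cells and 2.07 times in WT. The 3 levels summed to 78.1 FPKM in the IL6ra T-KO-labelled library, against 19.2 FPKM in WT (4.06-fold), and to 21.6 FPKM in MyD88 T-KO cells, against 18.8 FPKM in WT of that table (1.15-fold).

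Of the other CD225 genes in the tables, 1 reached 1 FPKM in any library. Ifitm6, 5.07 kb past Ifitm3, stood at 0.486 FPKM in the IL6ra T-KO-labelled library against 0.774 FPKM in WT, and at 0.936 FPKM in MyD88 T-KO cells against 0.756 FPKM in WT of that table. These values rest on 7 to 13 fragments, so the direction of these small differences is not resolved at this depth. Ifitm5, known for its role in bone, was listed at 0 in the IL6ra T-KO-labelled library and in WT and at 0.0676 FPKM in MyD88 T-KO cells, and Ifitm7 was listed at 0 in all of them. Prrt2, a presynaptic protein with the CD225 fold, was the only other relative that reached 1 FPKM, with 4.59 FPKM in the IL6ra T-KO-labelled library and 4.19 FPKM in WT, and 3.85 FPKM in MyD88 T-KO cells and 4.10 FPKM in WT of that table.

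None of the other measured genes around the cluster was higher in the IL6ra T-KO-labelled library. Within 250 kb of the family 34 genes are listed, and 14 besides the members reached 1 FPKM in the libraries. In the IL6ra T-KO-labelled library their log2 ratios lay between -1.76 and 0.07 with a median of -0.09, and 3 were above 0. Of the 14, 0 were higher and 1 was lower, as against 1.1% and 0.752% of the 10502 genes with at least 1 FPKM. Athl1, 7.18 kb before Ifitm2, had 10.97 FPKM in the IL6ra T-KO-labelled library and 10.6 FPKM in WT. B4galnt4, a glycosyltransferase gene 50.5 kb past Ifitm3, had 6.75 FPKM in the IL6ra T-KO-labelled library and 25.2 FPKM in WT (log2 ratio -1.76). It is marked significant in the authors' deposited table (q = 1.97e-06). Beyond it, Pkp3 (a plakophilin of cell junctions) and Sigirr (an inhibitory member of the interleukin-1 receptor family) had log2 ratios of -0.54 and -0.58. In MyD88 T-KO cells the 14 genes lay between -0.28 and 0.21, B4galnt4 had 24.0 FPKM against 24.6 FPKM in WT, and none was past the threshold, as against 0.184% higher and 0.261% lower among 10345 genes. Irf7, an interferon-induced transcription factor gene 252 kb past Ifitm3 and so outside the window, had 44.2 FPKM in the IL6ra T-KO-labelled library and 34.6 FPKM in WT (log2 ratio 0.34).

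**Figure D2:**
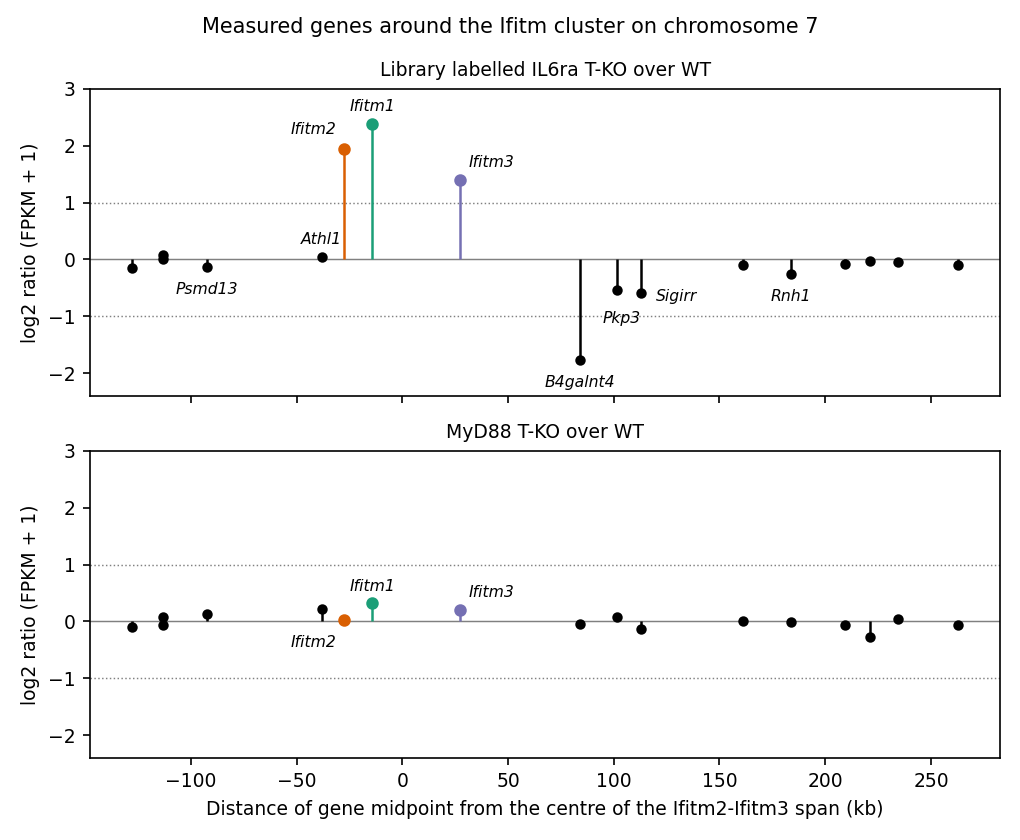
log2 ratio of knockout over WT (vertical axis) of the measured genes within 250 kb of the family, against the distance in kb of each gene's midpoint from the centre of the family's span; coloured points are the members, black points their neighbours, and dotted lines mark 1 in size. In the IL6ra T-KO-labelled library the members stand at 1.40 to 2.38 while neighbours reach at most 0.07 and B4galnt4 is at -1.76; for MyD88 T-KO all genes drawn lie between -0.28 and 0.32.

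Most other interferon-induced genes lay above 0 in the IL6ra T-KO-labelled library, and few were past the threshold. Joined, 3 lists (GTPases, antiviral effectors and other interferon-stimulated genes) held 72 measured genes. Of these, 67 had a log2 ratio above 0, as did 4524 of all 10502 genes. The median of the 72 was 0.38, against a median of -0.04 over all genes. Of the 72, 6 were higher, as against 1.1% of the 10502, and none was lower. In MyD88 T-KO cells 29 of 71 were above 0, as were 5602 of all 10345 genes, and the median was -0.02 against 0.01 over all genes. None of the 71 was past the threshold, as against 0.184% higher and 0.261% lower among all genes. Set among these genes, the members held ranks 1, 2 and 3 of 75 in the IL6ra T-KO-labelled library. In MyD88 T-KO cells Ifitm1, Ifitm2 and Ifitm3 held ranks 4, 24 and 6 of 74. The members were picked on the first of these contrasts, and the lists do not hold every interferon-induced gene, so nothing is read from these ranks.

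The interferon-induced GTPases, which attack the vacuoles of intracellular pathogens, had a median of 0.61 in the IL6ra T-KO-labelled library. There 14 of 15 were above 0, as were 4524 of all 10502 genes. Of these GTPases, 4 were higher (Iigp1, Gbp6, Gbp7 and Gbp3), as against 1.1% of all genes at 1 FPKM. All 4 are marked significant in the authors' deposited table, which marks 0.502% of its tested genes as significant and higher. Iigp1 had 12.8 FPKM in the IL6ra T-KO-labelled library and 4.27 FPKM in WT, and Gbp6 had 18.6 FPKM there and 7.20 FPKM in WT. The GTPases had a median of -0.12 in MyD88 T-KO cells. Gvin1, a giant GTPase gene, was at 2.58 FPKM in MyD88 T-KO cells against 5.69 FPKM in WT, and is marked significant in the authors' deposited table (q = 0.00174). The other antiviral effectors had a median of 0.38 in the IL6ra T-KO-labelled library, with 23 of 24 above 0. None of the 24 was past the threshold, as against 1.1% higher and 0.752% lower among all genes. Among them Oasl2, an oligoadenylate synthetase relative, had 8.32 FPKM in the IL6ra T-KO-labelled library against 3.84 FPKM in WT. Ifit3, one of the IFIT proteins that act on viral RNA, had 15.8 FPKM there against 8.25 FPKM in WT. Of 33 other interferon-stimulated genes, with a median of 0.24, Ly6c2 and Cxcl10 were higher, as against 1.1% of all genes. Neither is marked in the authors' deposited table. Ly6c2, a surface antigen of memory T cells and monocytes, had 13.2 FPKM in the IL6ra T-KO-labelled library against 5.25 FPKM in WT. Cxcl10, a ligand of CXCR3, had 13.2 FPKM there against 5.99 FPKM in WT. Ly6a, which encodes the surface antigen Sca-1, had 336 FPKM in the IL6ra T-KO-labelled library and 582 FPKM in WT (log2 ratio -0.79).

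The genes that carry the interferon signal lay on both sides of 0. Of 19 measured genes for receptors, kinases, STAT and IRF factors and inhibitors of the pathway, 10 were above 0 in the IL6ra T-KO-labelled library, with a median of 0.01. Socs1, the inhibitor of JAK kinases downstream of interferon and other cytokine receptors, was lower, with 36.7 FPKM in the IL6ra T-KO-labelled library and 112 FPKM in WT (q = 3.27e-05 in the authors' deposited table). Ifngr1, a chain of the interferon gamma receptor, had 45.5 FPKM in the IL6ra T-KO-labelled library against 36.3 FPKM in WT, and Jak2 had 80.8 FPKM there against 118.0 FPKM in WT. Ifng, the type II interferon made by Th1 cells, had 27.7 FPKM in the IL6ra T-KO-labelled library against 12.5 FPKM in WT (q = 0.171 in the authors' deposited table). In MyD88 T-KO cells Ifng had 6.07 FPKM against 12.2 FPKM in WT of that table (q = 0.0513). The part of Ifng in the levels of the members was not tested. The type I genes Ifna1, Ifna2, Ifna4 and Ifnb1 were listed at 0 in all libraries. Genes whose products modify or bind IFITM3, such as the palmitoyltransferase gene Zdhhc20, the ubiquitin ligase gene Nedd4 and Vapa, had a median of -0.02 over 11 genes in the IL6ra T-KO-labelled library, and none was past the threshold. Vapa, which tethers endoplasmic reticulum to other membranes, had 60.3 FPKM in the IL6ra T-KO-labelled library and 74.9 FPKM in WT. Cd81, whose product associates with IFITM1 in human lymphocytes, had 42.4 FPKM in the IL6ra T-KO-labelled library and 34.3 FPKM in WT.

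**Figure D3:**
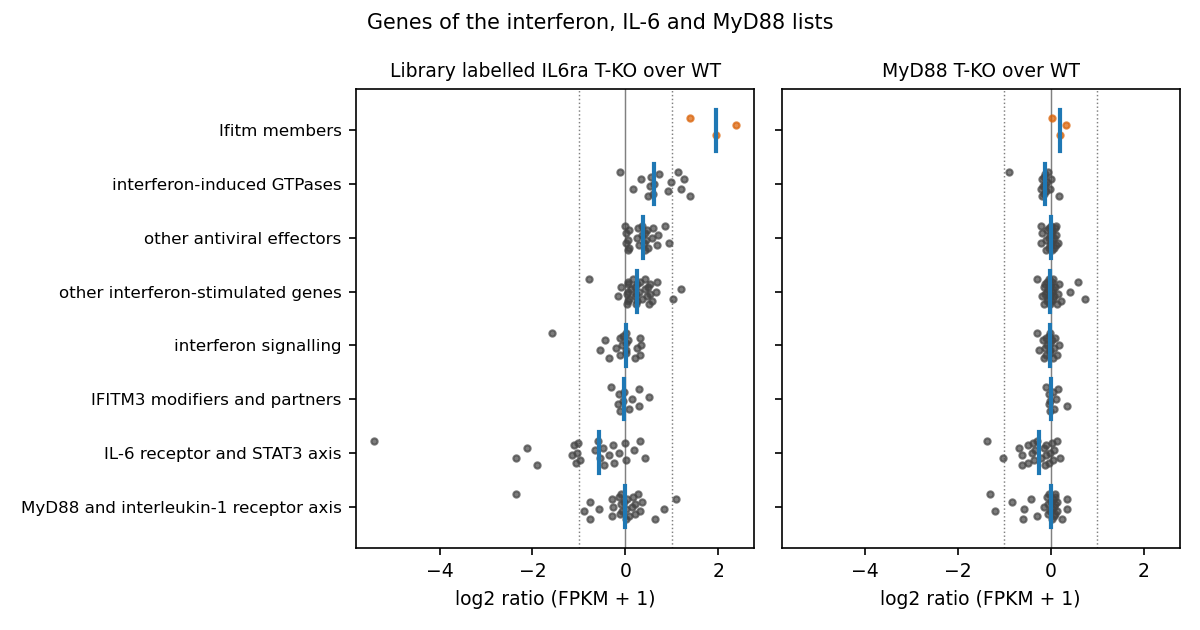
log2 ratio of knockout over WT (horizontal axis) of every measured gene of 8 groups, with the group's median as a blue bar, the members in orange, and dotted lines at 1 in size. In the IL6ra T-KO-labelled library the members have a median of 1.94 and the GTPases one of 0.61, while genes of the IL-6 receptor and STAT3 axis have one of -0.56; for MyD88 T-KO the medians lie between -0.26 and 0.20.

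Genes of the IL-6 receptor and STAT3 axis were on the low side in the IL6ra T-KO-labelled library, with 9 of 24 lower, as against 0.752% of all genes at 1 FPKM, and a median of -0.56. In MyD88 T-KO cells 2 of 24 were lower, as against 0.261% of all genes. The lowest ratio in that list was that of Il22, a cytokine of Th17 and Th22 cells, with 3.10 FPKM in the IL6ra T-KO-labelled library and 173 FPKM in WT. In the MyD88 and interleukin-1 receptor axis 1 of 28 genes was higher and 1 lower in the IL6ra T-KO-labelled library (1.1% and 0.752% of all genes), and 2 were lower in MyD88 T-KO cells (0.261%). The Il1r1 gene stands in both of these lists.

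Marker lists of other T cell states and cell types were read as RNA levels, which do not by themselves give the makeup of the pools. Th1 markers had a median of 0.53 in the IL6ra T-KO-labelled library, and 4 of 12 were higher (Nkg7, Tbx21, Il12rb2 and Ifng), as against 1.1% of all genes. The Th1 median was -0.37 in MyD88 T-KO cells, with 1 of 12 lower, as against 0.261% of all genes. Over all genes, 4524 of 10502 were above 0 in the IL6ra T-KO-labelled library and 5602 of 10345 in MyD88 T-KO cells. All 19 B cell markers were above 0 in both knockout libraries. Their summed level was 816 FPKM in the IL6ra T-KO-labelled library against 566 FPKM in WT, and 1014 FPKM in MyD88 T-KO cells against 552 FPKM in WT of that table. Of 21 macrophage and dendritic cell markers 8 were measured. All 21 together summed to 237 FPKM in the IL6ra T-KO-labelled library and 202 FPKM in WT, and to 217 FPKM in MyD88 T-KO cells and 198 FPKM in WT of that table. Clec9a was listed at 0 in the IL6ra T-KO-labelled library and in WT of its table, and Itgam was higher in the IL6ra T-KO-labelled library. All 10 natural killer and innate lymphoid markers together summed to 14.8 FPKM in the IL6ra T-KO-labelled library against 11.2 FPKM in WT, with Klra8 and Klra4 listed at 0. Of the 3 measured, Eomes and Prf1 were above 0 there. Klrb1c was below 0, with 3.98 FPKM against 5.77 FPKM in WT. Of 14 stroma and endothelium markers only Pecam1 and Vim reached 1 FPKM, and Kdr, Col3a1, Pdgfra, Pdpn and Lyve1 were listed at 0 in the IL6ra T-KO-labelled library. Neutrophil markers had a median of -0.85 over 5 measured genes there. Gamma delta T cell markers had -0.99 over 3, with Cd163l1 at -2.15 and Blk at 0.52. Erythroid and platelet markers had -1.77 over 2, Beta-s at -0.71 and Hba-a2 at -2.84. Hba-a2 was listed there at 0.000477 FPKM with an implied standard error of 263 (log2 scale), so little can be read from that median. In MyD88 T-KO cells all 3 measured erythroid and platelet markers were higher, as against 0.184% of all genes. Beta-s at 1.09 and Hba-a2 at 1.00 were close to the threshold. Hbb-b2 had 5.51 FPKM against 0.00589 FPKM in WT, with an implied standard error of 23.5 (log2 scale), so little can be read from that count. Regulatory T cell markers had a median of 0.38 over 16 genes in the IL6ra T-KO-labelled library, with 13 above 0 and 3 below. Of the 16, 2 were higher and 1 lower, as against 1.1% and 0.752% of all genes. The lower one was Folr4, at 157 FPKM against 350 FPKM in WT (q = 0.0121 in the authors' deposited table). Th2 markers had a median of 0.38 over 6 there, with 4 above 0 and 2 below. Plasma cell markers had a median of 0.43 over 6 in the IL6ra T-KO-labelled library, with 4 above 0 and 2 below (Xbp1 at -0.17 and Irf4 at -0.08). Only 1 of the 6 was higher, as against 1.1% of all genes. It was Igj, the joining chain of secreted antibodies, at 42.2 FPKM in the IL6ra T-KO-labelled library and 8.16 FPKM in WT. Cd8a and Cd8b1, the CD8 markers, had a median of 0.24 in the IL6ra T-KO-labelled library and 0.85 in MyD88 T-KO cells. The part of these cell types in the levels of the members was not tested.

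The genes most like the family over both comparisons were ranked by the distance of their log2 ratios from the mean of the members, 0.18 in MyD88 T-KO cells and 1.91 in the IL6ra T-KO-labelled library. Among 7629 genes the nearest were Il17rb (distance 0.12), Nrn1 (0.16), Eif2s3y (0.23) and Ifi204 (0.25), followed by Igfbp7, Chdh, Nrgn, Fam71b, Ebi3 and Ccl3 at 0.31 to 0.44. The members themselves lay at 0.49 (Ifitm1), 0.16 (Ifitm2) and 0.51 (Ifitm3), and the first gene outside the 10 was Hrh4 at 0.51. Il17rb, a receptor chain for IL-25, had 9.51 FPKM in the IL6ra T-KO-labelled library and 1.82 FPKM in WT. Ifi204, an interferon-induced gene of the p200 family that is not in the lists above, had 20.6 FPKM in the IL6ra T-KO-labelled library and 5.74 FPKM in WT, and its log2 ratio of 1.68 exceeds that of Ifitm3. Ebi3, a subunit of IL-27 and IL-35, had 15.9 FPKM in the IL6ra T-KO-labelled library and 4.97 FPKM in WT. Of the 10 genes, 8 had a promoter sequence. The response element core was in 0 of the 8, against 3.99% of all genes, and the STAT palindrome in 1 (Chdh), against 9.55%, so these counts do not set the 8 apart.

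Eif2s3y, a translation factor gene on the Y chromosome, had 15.7 FPKM in the IL6ra T-KO-labelled library and 3.96 FPKM in WT. Other Y-linked genes, looked up after that value was seen, were also above 0 there. Their log2 ratios were 1.05 for Ddx3y, 0.82 for Kdm5d and 0.76 for Uty, while Xist stood at 0.19. In MyD88 T-KO cells Ddx3y stood at -0.43, Kdm5d at -0.48, Uty at -0.14, Eif2s3y at 0.02 and Xist at 0.16. The sexes of the pooled mice are not stated in these sources, and their part in the levels of the members was not tested.

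**Figure D4:**
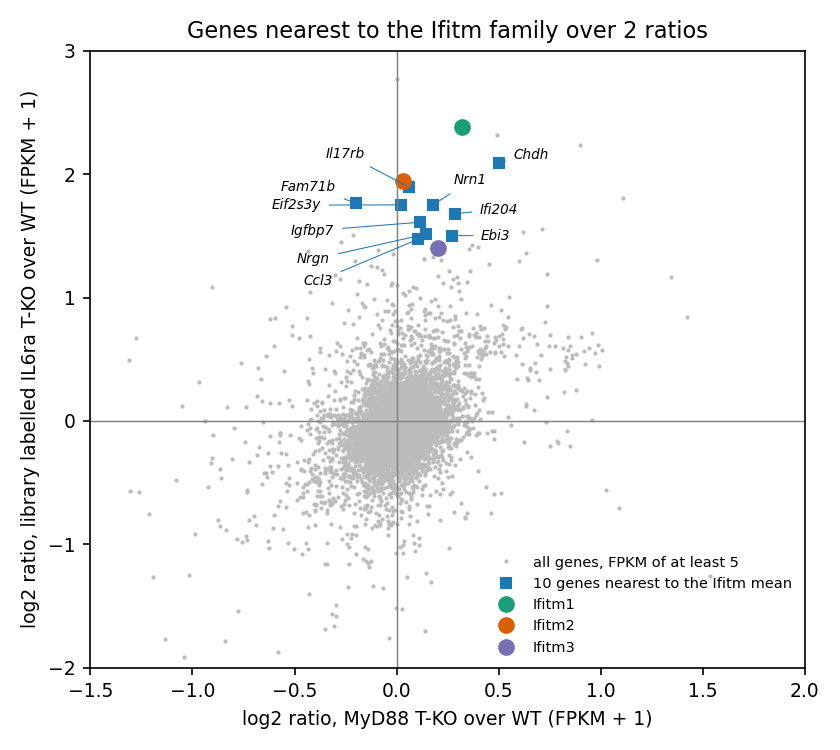
log2 ratio in the IL6ra T-KO-labelled library (vertical axis) against that in MyD88 T-KO cells (horizontal axis), both over the same WT library, with a grey point for each of 8128 genes at or above 5 FPKM in any library (29 more lie outside the axes), circles for the members and squares for the 10 nearest genes. The members and their nearest genes lie between -0.20 and 0.50 on the horizontal axis and between 1.40 and 2.38 on the vertical axis.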

How the data were processed

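The members and all gene lists were chosen with earlier results of these data known. PolyA RNA of 3 libraries was sequenced, and TopHat, Cufflinks and mm10 appear in the submitters' processing notes; versions were not given in the sources used here. Levels are FPKM in the authors' deposited tables, 2 tables of 4 sheets, each setting 1 knockout against WT. Each gene's p-value and q-value come from the authors (columns of a Cuffdiff output, per the file headers). Fold changes on the log2 scale were deposited as WT over knockout and inverted, and their ratio to the deposited test statistic gave the implied standard error. An emptied line (1 per file set) was left out, and starts have 1 added. With 1 library per group no test was made. Depth came from the 1-fragment step of FPKM in genes with transcripts of 500 to 1100 nt. Fragment numbers were estimated from the FPKM, that depth and the whole transcript length. Counting intervals at 95% apply exact formulas to these estimates, so their bounds are approximate.

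A gene was measured at 1 FPKM in either library. Genes named were the members, targeted genes, CD225 relatives, genes within 250 kb, up to 2 per direction and list, and the 10 most like the family; Gbp3, Gbp7, Socs3 and other marker and Y-linked genes named besides were chosen after their values were seen. Likeness left out small RNA, predicted and receptor segment genes. Gene models are GENCODE M21. Computations used Python 3.11.15, pandas 2.3.3, numpy 2.4.6, scipy 1.17.1 and matplotlib 3.10.9.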

Additional observations from a re-analysis of the deposited data

How the results depend on the processing

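No paired analysis was possible because each group had 1 library, and for the same reason no replicate could be left out. Alternatives were pseudocounts of 0.1 and 5 FPKM or none, centring on the median of all genes, WT values of the other table, and other filters and thresholds. There were 36 combinations of a member's log2 ratio and an alternative. Of these, 34 shifted by less than the distance from the fold to the bound of the counting interval (log2 scale), and 2 by more. None changed sign, but a pseudocount cannot change the sign, and WT of the other table is the same library with another scaling. The alternatives therefore say little about how stable the direction is. With a pseudocount of 5 FPKM, Ifitm1 in the IL6ra T-KO-labelled library came to 1.75 instead of 2.38 and Ifitm2 to 1.52 instead of 1.94, since a larger pseudocount shrinks ratios of low genes. Over all alternatives there, the ranges were 1.75 to 2.64 for Ifitm1, 1.52 to 2.09 for Ifitm2 and 1.11 to 1.503 for Ifitm3. In MyD88 T-KO cells they were 0.19 to 0.39, 0.00 to 0.04 and 0.14 to 0.23.

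Of 28 counts over all genes, 17 stayed within 1.5 times the count reported. With 1 FPKM added, a gene below 1 FPKM in both libraries cannot reach the threshold. The counts with no filter therefore had to equal those at 1 FPKM and add nothing to them. In the IL6ra T-KO-labelled library, the 77 higher genes became 32 with a pseudocount of 5 FPKM, 116 at 1 FPKM, 116 with no filter and 277 at 1.5-fold, and the 60 lower genes became 35 with a pseudocount of 5 FPKM and 225 at 1.5-fold. In MyD88 T-KO cells the 15 higher genes became 27 with a pseudocount of 0.1 FPKM, 79 at 1.5-fold and 7 without small RNA, predicted and receptor segment genes, and the 19 lower genes became 10 with a pseudocount of 5 FPKM and 71 at 1.5-fold. The median of the interferon-induced genes, under alternatives chosen after seeing the data, was 0.26 to 0.44 in the IL6ra T-KO-labelled library and -0.04 to -0.02 in MyD88 T-KO cells. Their 6 higher genes became 0 with a pseudocount of 5 FPKM and 10 with one of 0.1 FPKM. The filter without small RNA genes was also chosen after seeing the data. Depth limits Ifitm6, at 7 to 13 fragments, and pooling hides the spread between mice at any depth.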
